A study of Canis lupus with 24 samples.

Results

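The genes described here are 5 subunits of the transcription factor NF-kB (NFKB1, NFKB2, REL, RELA and RELB) and 5 genes whose products restrain or feed back on it (NFKBIA, NFKBIE, NFKBIZ, TNFAIP3 and BIRC3). They were chosen by symbol, as array features whose platform annotation gives exactly 1 symbol equal to a gene of the set. Each of the 10 genes had 1 such feature, so the set is 10 of 16295 genes measured.

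NF-kB subunits work in pairs that wait in the cytoplasm, held by inhibitor proteins, until a signal from a cytokine receptor or a sensor of foreign RNA leads a kinase complex to mark the inhibitor for destruction. The freed pair enters the nucleus and switches on genes for cytokines, chemokines and survival factors, and among its targets are several of its own subunits and inhibitors, which makes the system self-limiting. Epithelial cells, those of the bladder included, use it to answer infection and injury. Roles given below are those known from human and mouse.

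The cells were K9TCC, a single line of canine transitional cell carcinoma of the bladder. RNA was measured on 24 Affymetrix Canine Gene 1.1 ST arrays, with 3 in each of 8 groups. They grew attached in DMEM-F-12 with serum (adherent) or as cancer stem cell spheres in ultralow attachment, serum-free N2 medium with bFGF and EGF, and the study asked how each form responds when COX-2 is inhibited or targeted. Mavacoxib, a COX-2 inhibitor, was given at 50 µM for 24 h and set against DMSO for 24 h. Cells were transfected for 48 h, with the reagent Lipofectamine RNAiMAX, with a COX-2 siRNA or with a negative control siRNA. This gives spheres with mavacoxib and with DMSO, adherent cells with mavacoxib and with DMSO, spheres labelled COX-2 siRNA and negative siRNA, and adherent cells labelled COX-2 siRNA and negative siRNA. Before transfection both forms were seeded a day earlier in anchorage-dependent conditions, so the transfected spheres had been plated.

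Values are log2 signals, and array medians lay between 4.68 and 5.02. There are no detection calls. Signals below 4.82, the median of all values, may be background, and a difference whose lower group lies there is a lower bound. All 10 genes of the set had group means above that level in all 8 groups. NFKBIE came nearest to it, at 4.91 in mavacoxib spheres, with array 3 of that group at 4.75. Background may therefore lessen its differences that involve spheres. No label says whether the 3 arrays of a group stem from different cultures. The p-values therefore reflect only how far these samples scatter, and that scatter may be technical. In bulk RNA such as this, fewer cells of a type and less RNA per cell cannot be told apart. Where arrays of 2 groups are said not to overlap, this describes the values and is no test. The share of all genes without overlap was not counted for comparisons of 2 groups.

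PTGS2, which encodes COX-2, went against its label. It was 11.32, 11.51 and 11.59 in spheres labelled COX-2 siRNA, against 10.30, 10.29 and 10.35 in negative siRNA spheres. In adherent cells it was 11.27, 11.50 and 11.20 on arrays labelled COX-2 siRNA, against 11.06, 10.89 and 11.02 with the negative siRNA. PTGS2 was thus higher with the COX-2 siRNA label by 1.16 ± 0.13 in spheres (adjusted p = 2.57e-07), and the adherent difference of 0.33 ± 0.13 did not pass (adjusted p = 0.0888). Relative to DMSO, PTGS2 with the negative siRNA differed by -1.80 ± 0.13 in spheres (adjusted p = 2.98e-10) and by 1.39 ± 0.13 in adherent cells (adjusted p = 9.07e-07). Whether the labels are exchanged, or whether this feature reports knockdown at all, was not tested. Exchanged labels would turn the sign of every difference between the COX-2 siRNA and negative siRNA labels, so each direction given for them is a direction between labels. Comparisons of negative siRNA arrays with DMSO arrays or between forms rest on the same labels, as does the order of the groups. With exchanged labels, the arrays called negative siRNA there would be those with the COX-2 siRNA.

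Of the epithelial markers, 8 or 9 of 10 lay above the median of all values in each group. Of urothelial markers this held for 6 or 7 of 10 in spheres and 8 of 10 in adherent cells. Of 12 leukocyte markers, 1 was above it in spheres and 0 in adherent cells, and the leukocyte antigen PTPRC did not exceed a group mean of 2.79.

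1 array stood apart in the set. The third DMSO sphere array was the lowest of its group, or tied for lowest, at 10 of 10 genes of the set, and at 52.6% of all genes. DMSO sphere array 2 was the highest, or tied for highest, at 9 of 10. The mean correlation of the third DMSO sphere array with the other arrays of its group was 0.986, and the lowest such value was 0.983, of array 1 of the spheres labelled COX-2 siRNA. Calls that changed without the third DMSO sphere array are given below with and without it.

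**Figure D1:**
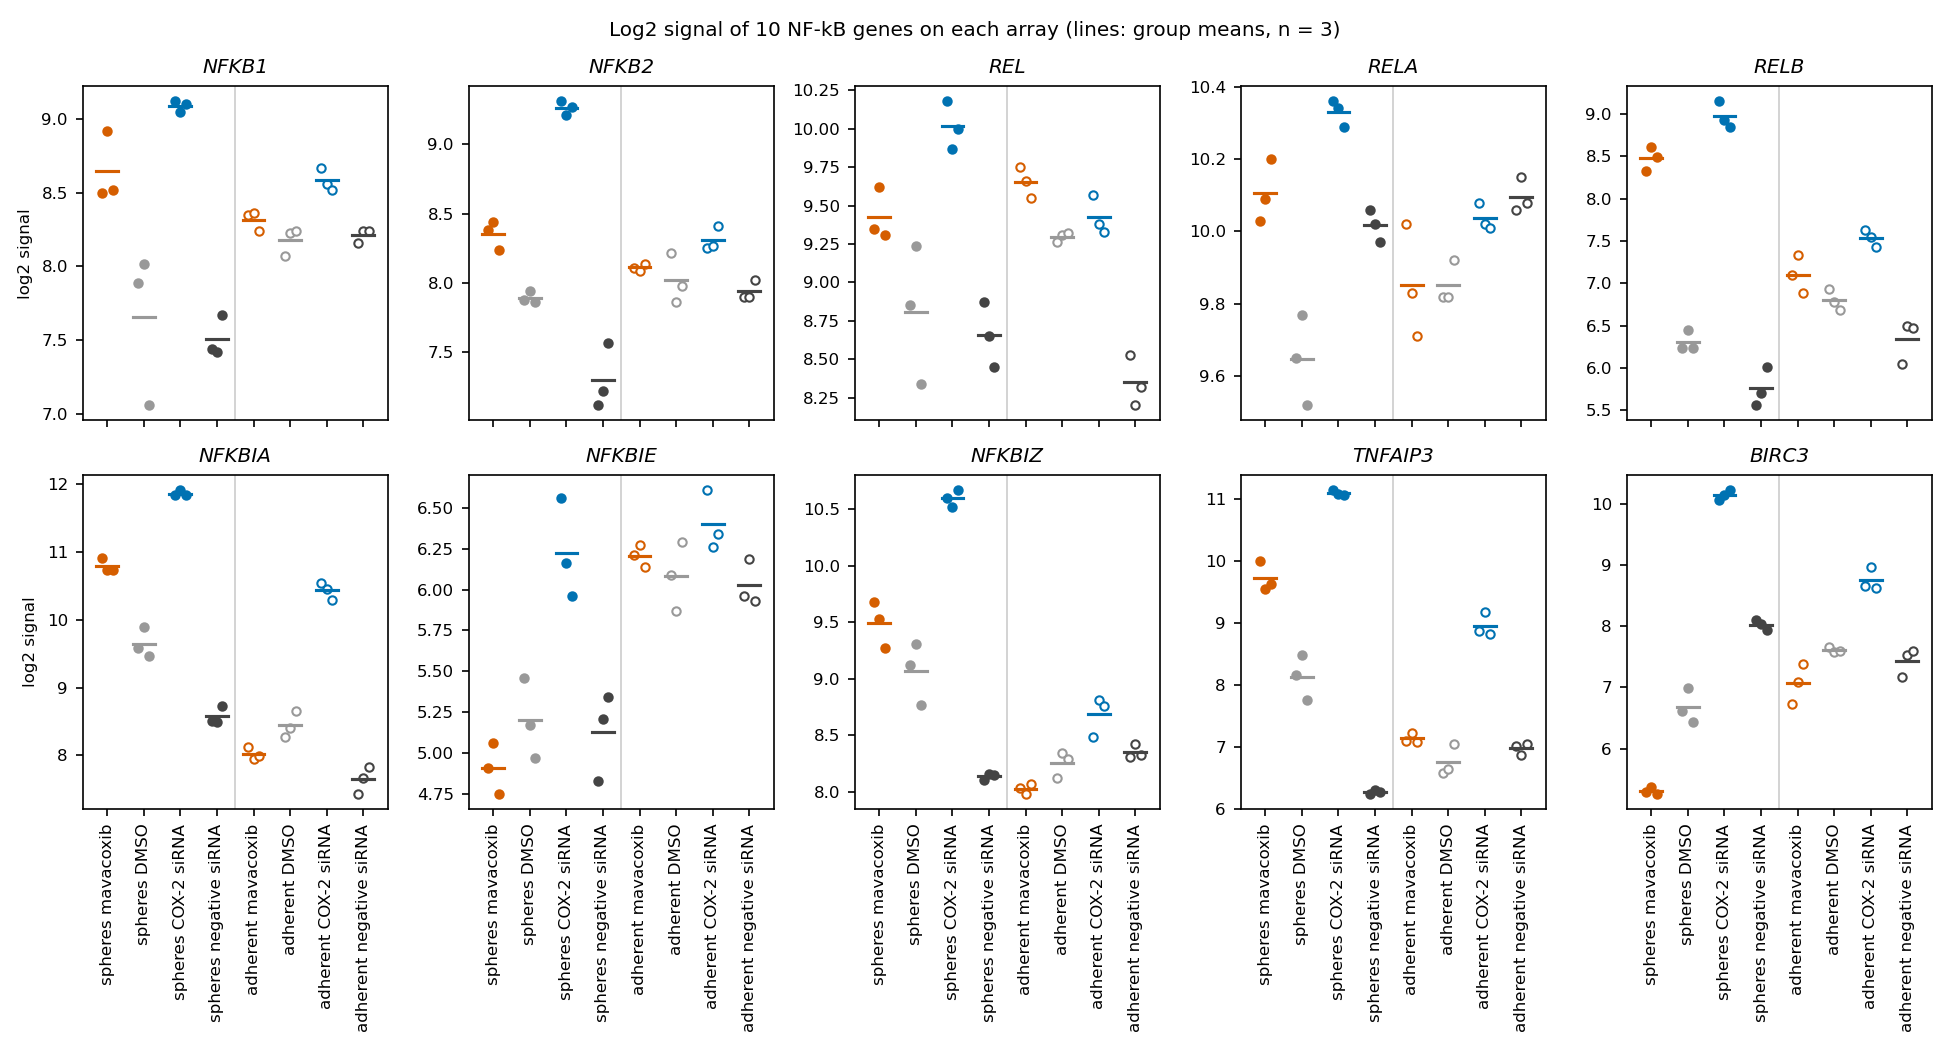
Log2 signal of each of the 10 genes on each of the 24 arrays, 1 panel per gene with its own vertical axis. Points are arrays and bars are means of the 3 arrays of a group. TNFAIP3 reaches 11.09 in spheres labelled COX-2 siRNA against 6.27 in negative siRNA spheres, and BIRC3 is lowest in mavacoxib spheres, at 5.31.

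The set was higher throughout in spheres labelled COX-2 siRNA than in negative siRNA spheres. All 10 genes rose, where 15.8% of all genes rose and 23.3% fell (39% in either direction). Of all genes called here 40.4% were higher, and 28.7% with every array shifted to a common median. The median difference over the set was 2.04 on the log2 scale, against -0.04 over all genes. The smallest rise was that of RELA and the largest that of TNFAIP3. Differences are tested with limma across all 24 arrays, with p adjusted by Benjamini-Hochberg over all 16295 genes.

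Among the subunits RELB, which pairs with the NFKB2 product in the slower, non-canonical arm of the pathway, moved most. RELB read 9.15, 8.93 and 8.85 in spheres labelled COX-2 siRNA, against 5.56, 5.71 and 6.01 in negative siRNA spheres. The lowest of the arrays labelled COX-2 siRNA was far above the highest of the negative siRNA arrays, and the difference was 3.22 ± 0.15 (SE; adjusted p = 8.08e-14). NFKB2, its partner, read 9.31, 9.21 and 9.27 in spheres labelled COX-2 siRNA, against 7.12, 7.22 and 7.57 with the negative siRNA. These arrays did not overlap either, and NFKB2 was higher by 1.96 ± 0.11 (adjusted p = 7.14e-12).

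The canonical subunits were less spread. NFKB1, which forms the classical heterodimer with RELA, was at 9.12, 9.05 and 9.10 in spheres labelled COX-2 siRNA, against 7.44, 7.42 and 7.67 in negative siRNA spheres. REL, best known from lymphocytes, was at 10.18, 9.87 and 10.00 with the COX-2 siRNA label, against 8.87, 8.65 and 8.45 with the negative siRNA. RELA, the main activating subunit, was at 10.36, 10.34 and 10.29 with the COX-2 siRNA label, against 10.06, 10.02 and 9.97 with the negative siRNA. In all 3 genes every array labelled COX-2 siRNA was above every negative siRNA array, but for RELA the gap between the groups was narrow. NFKB1 rose by 1.58 ± 0.17 (adjusted p = 1.44e-07) and REL by 1.36 ± 0.17 (adjusted p = 9.54e-07). RELA rose by 0.31 ± 0.10 (adjusted p = 0.0125). With all arrays shifted to a common median, which lowers every difference of this comparison by 0.11, the RELA difference was 0.20 and its adjusted p 0.145.

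Of the feedback genes, TNFAIP3 and NFKBIA rose most and NFKBIE least. TNFAIP3, a ubiquitin-editing enzyme that shuts down signalling from cytokine receptors, read 11.14, 11.07 and 11.06 in spheres labelled COX-2 siRNA, against 6.24, 6.30 and 6.27 in negative siRNA spheres. Replicates within each group lay almost on top of each other and the groups were far apart. The difference of 4.82 ± 0.16 (adjusted p = 2.02e-16) corresponds to 28.2-fold. NFKBIA, the inhibitor that binds the classical heterodimer and is quickly remade after activation, read 11.84, 11.92 and 11.84 with the COX-2 siRNA label, against 8.50, 8.49 and 8.73 with the negative siRNA. It was 3.29 ± 0.13 higher, or 9.80-fold (adjusted p = 6.43e-15), with no overlap.

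NFKBIZ, a nuclear inhibitor-like protein that is needed for induction of a subset of late targets such as IL6, was at 10.60, 10.52 and 10.67 in spheres labelled COX-2 siRNA, against 8.10, 8.16 and 8.15 in negative siRNA spheres. BIRC3, a ubiquitin ligase that helps tumour necrosis factor receptors signal and also keeps the non-canonical kinase MAP3K14 low, was at 10.07, 10.15 and 10.23 with the COX-2 siRNA label, against 8.10, 8.03 and 7.94 with the negative siRNA. NFKBIE, the inhibitor with a delayed and weaker feedback role, was at 6.56, 6.16 and 5.96 with the COX-2 siRNA label, against 4.83, 5.21 and 5.34 with the negative siRNA. NFKBIE had the most uneven replicates of the 3, though its groups still did not overlap. NFKBIZ rose by 2.46 ± 0.13 (adjusted p = 1.04e-12), BIRC3 by 2.13 ± 0.15 (adjusted p = 3.69e-10) and NFKBIE by 1.10 ± 0.17 (adjusted p = 1.41e-05). Of the 10 rises, that of RELA alone was lost under an alternative. It was lost with the common median and with only the 6 arrays of the comparison fitted (adjusted p = 0.0744).

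In adherent cells the arrays labelled COX-2 siRNA also exceeded the negative siRNA arrays, for fewer genes of the set. In this comparison 6 of 10 rose and 0 fell, where 6.42% of all genes rose and 8.59% fell (15% in either direction). The genes that rose were NFKBIA, TNFAIP3, BIRC3, RELB, REL and NFKB2, and the median over the set was 0.73, against -0.05 over all genes.

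NFKBIA had the largest difference of the set in adherent cells. It was at 10.55, 10.46 and 10.30 on arrays labelled COX-2 siRNA, against 7.43, 7.67 and 7.83 with the negative siRNA. TNFAIP3 was at 8.86, 9.18 and 8.82 with the COX-2 siRNA label, against 7.02, 6.87 and 7.04 with the negative siRNA. BIRC3 was at 8.66, 8.97 and 8.63 with the COX-2 siRNA label, against 7.17, 7.53 and 7.60 with the negative siRNA. The arrays of these feedback genes did not overlap between groups, which is no test. NFKBIA rose by 2.79 ± 0.13 (adjusted p = 3.17e-13), TNFAIP3 by 1.98 ± 0.16 (adjusted p = 5.22e-09) and BIRC3 by 1.32 ± 0.15 (adjusted p = 2.67e-06).

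Of the subunits in adherent cells, RELB was at 7.63, 7.55 and 7.43 on arrays labelled COX-2 siRNA, against 6.05, 6.50 and 6.47 with the negative siRNA, higher by 1.20 ± 0.15 (adjusted p = 4.53e-06). REL was at 9.57, 9.38 and 9.33 with the COX-2 siRNA label, against 8.53, 8.20 and 8.32 with the negative siRNA, higher by 1.08 ± 0.17 (adjusted p = 0.000106). For both subunits the arrays of the 2 groups stayed apart. NFKB2 differed by 0.37 ± 0.11 (adjusted p = 0.0308), a call that was lost on leaving out any array labelled COX-2 siRNA, or negative siRNA array 1 or 2, with adjusted p between 0.0539 and 0.109. The differences of NFKB1 (0.37 ± 0.17, adjusted p = 0.156), NFKBIE (0.38 ± 0.17, adjusted p = 0.138), NFKBIZ (0.33 ± 0.13, adjusted p = 0.0876) and RELA (-0.06 ± 0.10, adjusted p = 0.74) did not pass. The arrays of NFKB1, NFKBIE and NFKBIZ did not overlap, which is no test. Without array 1 labelled COX-2 siRNA, NFKBIZ passed, at 0.44 (adjusted p = 0.0496), as it did without dim genes (adjusted p = 0.0478).

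Genes of the interferon response moved with these differences. Of 17 measured genes of that list, whose rise was known from earlier results of these data, 17 were higher on arrays labelled COX-2 siRNA in spheres and 17 in adherent cells. The log2 of their summed signal was 14.75 to 14.78 in spheres labelled COX-2 siRNA, against 11.55 to 11.72 in negative siRNA spheres. In adherent cells it was 14.54 to 14.70 with the COX-2 siRNA label, against 10.98 to 11.08 with the negative siRNA. Their part in the rise of the NF-kB genes was not tested. Of 12 leukocyte markers 0 passed with limma in either form, and at an unadjusted p under 0.05 there was 1 in each, with a summed log2 signal of 6.85 to 7.03 in spheres labelled COX-2 siRNA against 6.87 to 7.09 in negative siRNA spheres. Of 10 epithelial markers 2 were higher and 5 lower in spheres labelled COX-2 siRNA, with a summed log2 signal of 13.47 to 13.56, against 13.60 to 13.66 in negative siRNA spheres. Of 10 urothelial markers 3 were higher and 1 lower in these spheres, with a sum of 12.19 to 12.32, against 11.81 to 12.09 with the negative siRNA. In adherent cells 0 epithelial markers were higher and 2 lower, and 0 urothelial markers were higher and 3 lower, with a urothelial sum of 12.71 to 12.73 with the COX-2 siRNA label, against 13.14 to 13.16 with the negative siRNA. Of 10 fibroblast markers 2 were higher in spheres labelled COX-2 siRNA and 1 in adherent cells, with 0 lower. The part of these markers was not tested either.

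Whether the siRNA-labelled difference was larger in spheres was tested directly, as the difference in spheres minus that in adherent cells. It was larger in spheres for 7 of 10 genes and smaller for 0, where 6.74% of all genes passed as more positive in spheres and 8.53% as more negative. The share of called genes that were more positive was 44.2%, and 26.6% with a common median. TNFAIP3 differed by 2.84 ± 0.22 between forms (adjusted p = 9.25e-09), NFKBIZ by 2.13 ± 0.18 (adjusted p = 3.49e-08) and RELB by 2.02 ± 0.21 (adjusted p = 5.64e-07). NFKB2 differed by 1.59 ± 0.16 (adjusted p = 5.19e-07), NFKB1 by 1.21 ± 0.24 (adjusted p = 0.00138) and BIRC3 by 0.81 ± 0.22 (adjusted p = 0.015). The genes in which no such difference passed were REL, with 0.28 ± 0.24 (95% interval -0.21 to 0.77), RELA, with 0.37 ± 0.14 (0.09 to 0.66, adjusted p = 0.0696), and NFKBIA, with 0.50 ± 0.19 (0.12 to 0.88, adjusted p = 0.0734). So the gene with the largest difference in adherent cells, NFKBIA, did not pass between forms with all arrays, while NFKBIZ passed in spheres and not in adherent cells and the difference itself passed. NFKBIE, at 0.72 ± 0.23 (adjusted p = 0.0401), lost its call when 1 of 8 of the 12 arrays was left out: arrays 2 or 3 labelled COX-2 siRNA or 1 or 2 with the negative siRNA in adherent cells, and arrays 1 or 2 of either group in spheres. NFKBIA passed without adherent negative siRNA array 1 (0.61, adjusted p = 0.0397) or sphere negative siRNA array 3 (0.58, adjusted p = 0.0467), and without dim genes (adjusted p = 0.0422). RELA passed with quantile normalization (0.37, adjusted p = 0.0253) and without dim genes (adjusted p = 0.0379). A common median lowers every difference of this test by 0.12. With it the NFKBIE difference was 0.60 and did not pass (adjusted p = 0.0769). Nor did NFKBIE pass with only the 12 arrays of the test fitted (adjusted p = 0.0779).

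**Figure D2:**
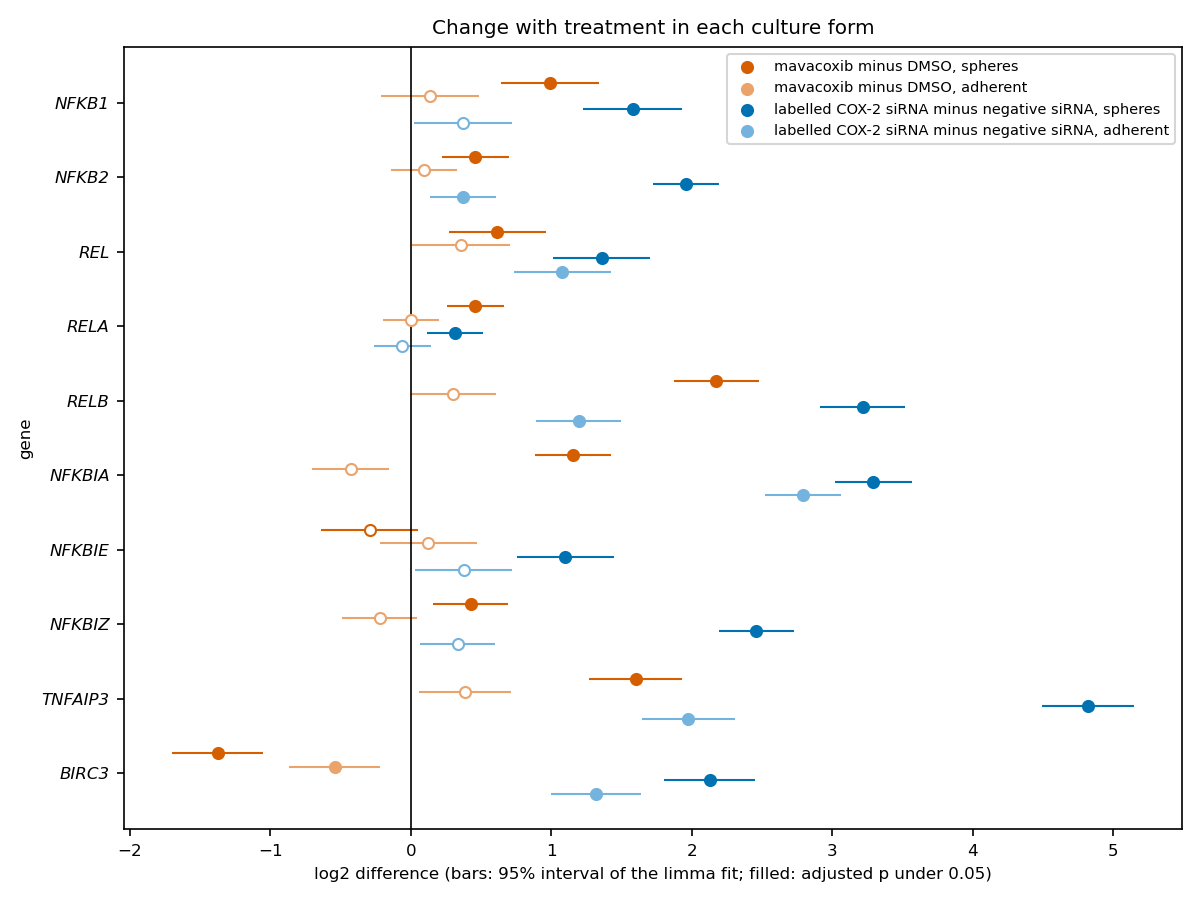
Log2 difference of each gene with treatment, mavacoxib minus DMSO and labelled COX-2 siRNA minus negative siRNA, in spheres and in adherent cells. Points are differences of group means of 3 arrays, bars are 95% intervals of the limma fit, and filled points passed an adjusted p of 0.05. All 10 filled points for siRNA-labelled spheres lie right of 0, and BIRC3 is the gene with filled points on both sides.

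Mavacoxib in spheres moved 9 of the 10 genes: 8 rose and BIRC3 fell, where 11.1% of all genes rose and 10.3% fell (21.4% in either direction). The median over the set was 0.54, against -0.01 over all genes. RELB and TNFAIP3 rose most, and NFKBIE did not pass.

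RELB read 8.33, 8.61 and 8.49 in mavacoxib spheres, against 6.23, 6.45 and 6.23 in DMSO spheres. The groups were clearly apart, with a difference of 2.17 ± 0.15 (adjusted p = 5.05e-10), or 4.51-fold. NFKB1 read 8.50, 8.92 and 8.52 with mavacoxib, against 7.89, 8.02 and 7.06 with DMSO, the last being the DMSO array that stood apart. It rose by 0.99 ± 0.17 (adjusted p = 0.000183), and by 0.69 (adjusted p = 0.000365) without that array. NFKB2 read 8.38, 8.44 and 8.24 with mavacoxib, against 7.88, 7.94 and 7.86 with DMSO, and RELA 10.03, 10.09 and 10.20 with mavacoxib, against 9.65, 9.77 and 9.52 with DMSO. Both were modestly and evenly higher, each by 0.46 (SE 0.11 and 0.10, adjusted p = 0.00541 and 0.00139). REL read 9.35, 9.62 and 9.31 with mavacoxib, against 8.85, 9.24 and 8.34 with DMSO, and its lowest mavacoxib array was just above the highest DMSO array. Its rise of 0.62 ± 0.17 (adjusted p = 0.01) became 0.38 (adjusted p = 0.0799) without DMSO array 3 and 0.52 (adjusted p = 0.0591) without mavacoxib array 2.

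Of the feedback genes, TNFAIP3 read 10.00, 9.55 and 9.63 in mavacoxib spheres, against 8.15, 8.48 and 7.75 in DMSO spheres. NFKBIA read 10.92, 10.74 and 10.74 with mavacoxib, against 9.59, 9.89 and 9.46 with DMSO. Both were higher on every mavacoxib array, TNFAIP3 by 1.60 ± 0.16 (adjusted p = 1.86e-07) and NFKBIA by 1.15 ± 0.13 (adjusted p = 1.25e-06). BIRC3 went the other way. It read 5.29, 5.37 and 5.26 in mavacoxib spheres, against 6.62, 6.99 and 6.44 in DMSO spheres, so that no array overlapped, and it fell by 1.38 on the log2 scale (SE 0.15, adjusted p = 1.09e-06). NFKBIE, at 4.91, 5.06 and 4.75 with mavacoxib, against 5.46, 5.17 and 4.97 with DMSO, overlapped between groups and differed by -0.29 ± 0.17 (adjusted p = 0.245). NFKBIZ read 9.68, 9.53 and 9.27 with mavacoxib, against 9.12, 9.31 and 8.77 with DMSO. Its groups overlapped too, although it passed, at 0.43 ± 0.13 (adjusted p = 0.0202). That call was lost without DMSO array 3 (0.28, adjusted p = 0.132), mavacoxib array 1 (0.33, adjusted p = 0.107) or mavacoxib array 2 (0.41, adjusted p = 0.0633). With only the 6 arrays of this comparison fitted, 1904 of all 16295 genes passed, against 3491 in the fit of all 24 arrays. Of the set 5 genes passed in that smaller fit: NFKB1, RELB, NFKBIA, TNFAIP3 and BIRC3.

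In adherent cells mavacoxib moved 1 of 10 genes, BIRC3, which fell, where 2.61% of all genes rose and 1.5% fell (4.12% in either direction). Of all genes called 63.5% were higher, and 53.3% after quantile normalization. BIRC3 read 6.73, 7.09 and 7.39 in adherent mavacoxib cells, against 7.66, 7.58 and 7.60 in adherent DMSO cells. All mavacoxib arrays were lower, the first by most. The difference was -0.54 ± 0.15 with an adjusted p of 0.0493, and the call was lost without any of the 3 DMSO arrays or without mavacoxib array 1 (-0.37, adjusted p = 0.281) or 2, and with a common median (-0.53, adjusted p = 0.0683). NFKBIA read 8.12, 7.94 and 7.99 with mavacoxib, against 8.27, 8.41 and 8.66 with DMSO, lower on every mavacoxib array, differing by -0.43 ± 0.13 without passing (adjusted p = 0.0684). It passed as lower with quantile normalization (-0.49, adjusted p = 0.0116) and without dim genes (adjusted p = 0.0306). TNFAIP3 read 7.10, 7.22 and 7.08 with mavacoxib, against 6.57, 6.64 and 7.04 with DMSO, again without overlap and without passing (0.38 ± 0.16, adjusted p = 0.207). The other 7 differences lay between -0.22 (NFKBIZ) and 0.36 (REL).

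The mavacoxib difference was itself tested between forms. It was more positive in spheres for 6 of 10 genes and more negative for BIRC3, where 4.49% of all genes passed as more positive and 5.82% as more negative. RELB differed by 1.87 ± 0.21 between forms (adjusted p = 3.12e-06), NFKBIA by 1.58 ± 0.19 (adjusted p = 6.05e-06) and TNFAIP3 by 1.22 ± 0.22 (adjusted p = 0.000933). These 3 calls held under every alternative tried, listed with the processing. NFKB1 (0.85 ± 0.24, adjusted p = 0.0236), NFKBIZ (0.65 ± 0.18, adjusted p = 0.0235), RELA (0.46 ± 0.14, adjusted p = 0.0326) and BIRC3 (-0.83 ± 0.22, adjusted p = 0.0159) passed with all arrays but each lost the call when certain single arrays were left out. Without the third DMSO sphere array NFKB1 differed by 0.56 (adjusted p = 0.0307), NFKBIZ by 0.50 (adjusted p = 0.0558) and RELA by 0.40 (adjusted p = 0.0633). BIRC3 was lost without adherent mavacoxib array 3 (-0.67, adjusted p = 0.0552) or sphere DMSO array 2 (-0.68, adjusted p = 0.0517). NFKB1 was lost without adherent DMSO array 2 or 3, adherent mavacoxib array 3 or sphere mavacoxib array 2. RELA was lost without those same 4 arrays as well as without adherent mavacoxib array 2, sphere DMSO array 1 or sphere mavacoxib array 3. NFKBIZ was lost without adherent DMSO array 2 or 3, adherent mavacoxib array 2, or sphere mavacoxib array 1 or 2. For NFKB2, REL and NFKBIE no difference between forms passed, at 0.37 (95% interval 0.03 to 0.70), 0.26 (-0.23 to 0.75) and -0.42 (-0.90 to 0.07). Without the third DMSO sphere array the REL difference was 0.025.

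Interferon response genes also moved with mavacoxib. Of the 17 measured, 9 rose and 0 fell in each form. The log2 of their summed signal was 12.49 to 12.82 in mavacoxib spheres, against 11.11 to 11.37 in DMSO spheres, and 11.39 to 11.62 in adherent mavacoxib cells, against 10.93 to 11.02 in adherent DMSO cells. Their part was not tested. Of 12 leukocyte markers 0 passed with limma in either form, and at an unadjusted p under 0.05 there was again 1 in each. Of 10 urothelial markers 0 rose and 4 fell in mavacoxib spheres (TP63, UPK2, FOXA1 and GATA3, with differences of -0.80 to -0.45), with a summed log2 signal of 12.27 to 12.48, against 12.32 to 12.55 in DMSO spheres, and 0 rose and 1 fell in adherent cells. The size of the UPK2 difference in spheres is a lower bound. Of 10 epithelial markers 1 rose in mavacoxib spheres and 0 passed in adherent cells with limma (2 lower at an unadjusted p under 0.05). Of 10 fibroblast markers 1 rose and 1 fell in mavacoxib spheres.

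**Figure D3:**
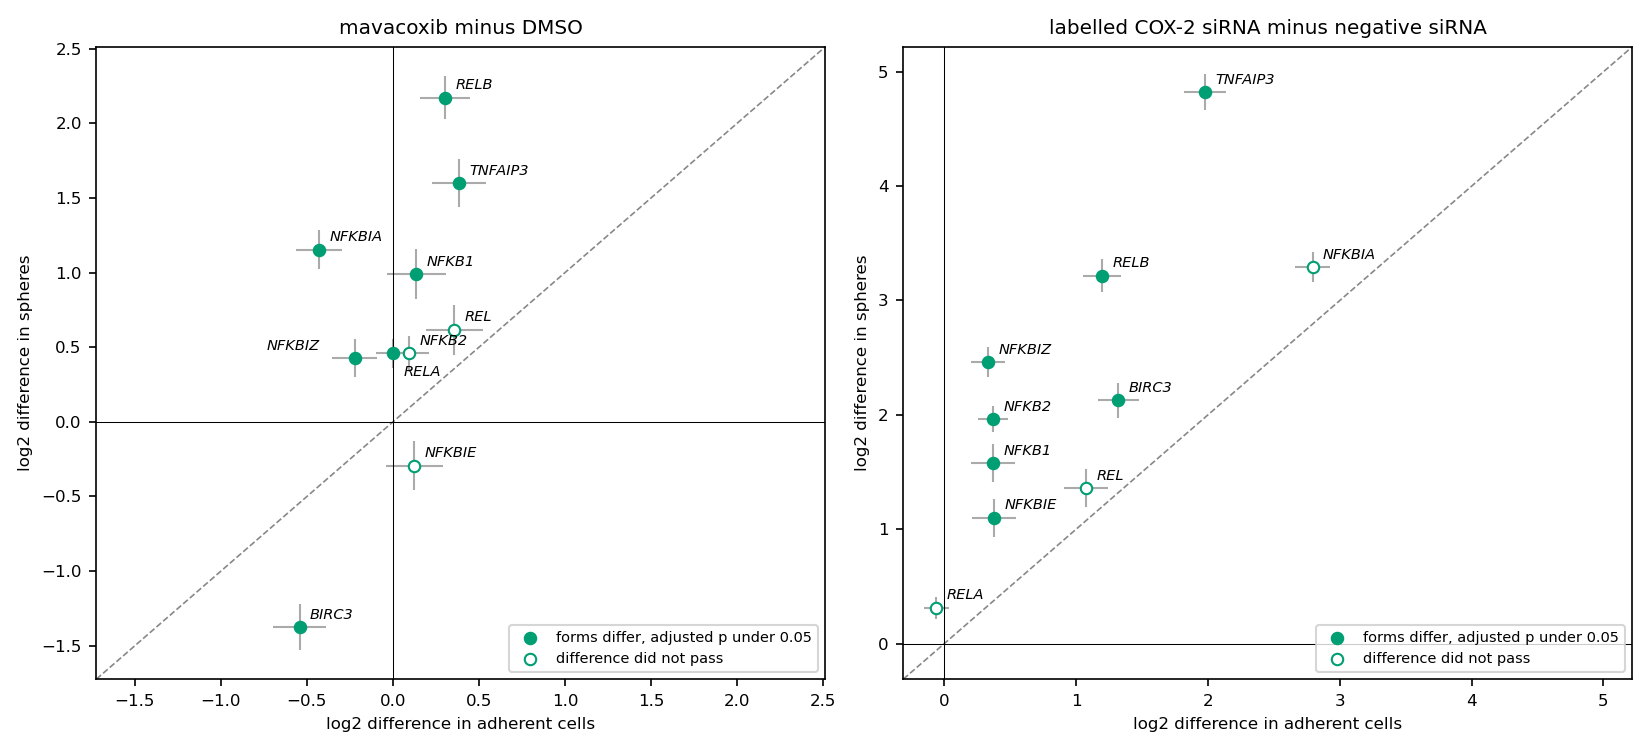
Log2 difference of each gene in spheres (vertical) against its difference in adherent cells (horizontal), for mavacoxib minus DMSO and for labelled COX-2 siRNA minus negative siRNA. Bars are SE, the dashed line marks equal differences, and filled points passed the test of the difference between forms. In the siRNA-labelled panel all 10 genes lie above the line, and in the mavacoxib panel NFKBIA lies at 1.15 in spheres and -0.43 in adherent cells.

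BIRC3 therefore had opposite calls in spheres. It fell with mavacoxib relative to DMSO, and it rose on arrays labelled COX-2 siRNA relative to the negative siRNA. All 10 genes rose with that label in spheres, so the 8 that rose with mavacoxib are necessarily among them. The 2 comparisons have no array in common, but they differ in agent, time and plating, and their difference was not tested.

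The control arrays compare the culture forms under DMSO and under the negative siRNA, the latter after 48 h of transfection. Between DMSO spheres and DMSO adherent cells, 3 of 10 genes were higher in spheres and 5 lower, where 22.8% of all genes were higher and 23.3% lower (46.1% in either direction). Between negative siRNA spheres and negative siRNA adherent cells, 2 were higher and 5 lower, where 20.5% of all genes were higher and 22.1% lower (42.7% in either direction). Shifting arrays to a common median lowers each difference by 0.19 with DMSO and by 0.14 with the negative siRNA. The share of called genes that were higher in spheres was 49.5% with DMSO, and 33.6% with a common median, and with the negative siRNA it was 48.1%, and 34.1% with a common median. These comparisons use the control arrays that the treatment comparisons also use.

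Under DMSO the feedback genes split. TNFAIP3 was at 8.15, 8.48 and 7.75 in spheres, against 6.57, 6.64 and 7.04 in adherent cells. NFKBIA was at 9.59, 9.89 and 9.46 in spheres, against 8.27, 8.41 and 8.66 in adherent cells, and NFKBIZ at 9.12, 9.31 and 8.77 in spheres, against 8.12, 8.34 and 8.29 in adherent cells. All 3 were higher on every sphere array, TNFAIP3 by 1.38 ± 0.16 (adjusted p = 1.44e-07), NFKBIA by 1.20 ± 0.13 (adjusted p = 6.44e-08) and NFKBIZ by 0.82 ± 0.13 (adjusted p = 1.28e-05). BIRC3 was at 6.62, 6.99 and 6.44 in spheres, against 7.66, 7.58 and 7.60 in adherent cells, and NFKBIE at 5.46, 5.17 and 4.97 in spheres, against 6.09, 5.87 and 6.29 in adherent cells. Both were lower on every sphere array, BIRC3 with a difference of -0.93 ± 0.15 (adjusted p = 2.56e-05) and NFKBIE with one of -0.88 ± 0.17 (adjusted p = 0.000106).

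The subunits were lower or did not pass under DMSO. RELB, at 6.23, 6.45 and 6.23 in spheres against 6.93, 6.78 and 6.69 in adherent cells, was lower, differing by -0.50 ± 0.15 (adjusted p = 0.0071) with no overlap. NFKB1 differed by -0.52 ± 0.17 (adjusted p = 0.0137) and REL by -0.49 ± 0.17 (adjusted p = 0.0195), and both calls rested on the third DMSO sphere array. Without it NFKB1 differed by -0.23 (adjusted p = 0.15) and REL by -0.25 (adjusted p = 0.188). REL also lost its call without adherent DMSO array 3 (-0.48, adjusted p = 0.0506). NFKB2 differed by -0.13 ± 0.11 (adjusted p = 0.408). RELA differed by -0.21 ± 0.10 (adjusted p = 0.0878), and passed at -0.27 (adjusted p = 0.0444) without sphere DMSO array 2. With a common median both passed, NFKB2 at -0.31 (adjusted p = 0.0151) and RELA at -0.39 (adjusted p = 0.0035).

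With the negative siRNA, NFKBIA was again higher in spheres, at 8.50, 8.49 and 8.73 in spheres, against 7.43, 7.67 and 7.83 in adherent cells (0.93 ± 0.13, adjusted p = 3.35e-06). BIRC3 was at 8.10, 8.03 and 7.94 in spheres, against 7.17, 7.53 and 7.60 in adherent cells, and was higher by 0.59 ± 0.15 (adjusted p = 0.00335). TNFAIP3 was at 6.24, 6.30 and 6.27 in spheres, against 7.02, 6.87 and 7.04 in adherent cells, and was lower, differing by -0.71 ± 0.16 (adjusted p = 0.000801). For these 3 feedback genes the arrays of the forms did not overlap, and BIRC3 and TNFAIP3 stood on the opposite side from that under DMSO. NFKBIE was lower, differing by -0.90 ± 0.17, NFKB1 by -0.70 ± 0.17, NFKB2 by -0.64 ± 0.11 and RELB by -0.58 ± 0.15, and all 7 calls held on leaving out each array. REL (0.31 ± 0.17, adjusted p = 0.15), RELA (-0.08 ± 0.10, adjusted p = 0.555) and NFKBIZ (-0.21 ± 0.13, adjusted p = 0.2) did not pass. NFKBIZ passed with a common median, at -0.35 (adjusted p = 0.0348), and REL with quantile normalization, at 0.38 (adjusted p = 0.0331).

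**Figure D4:**
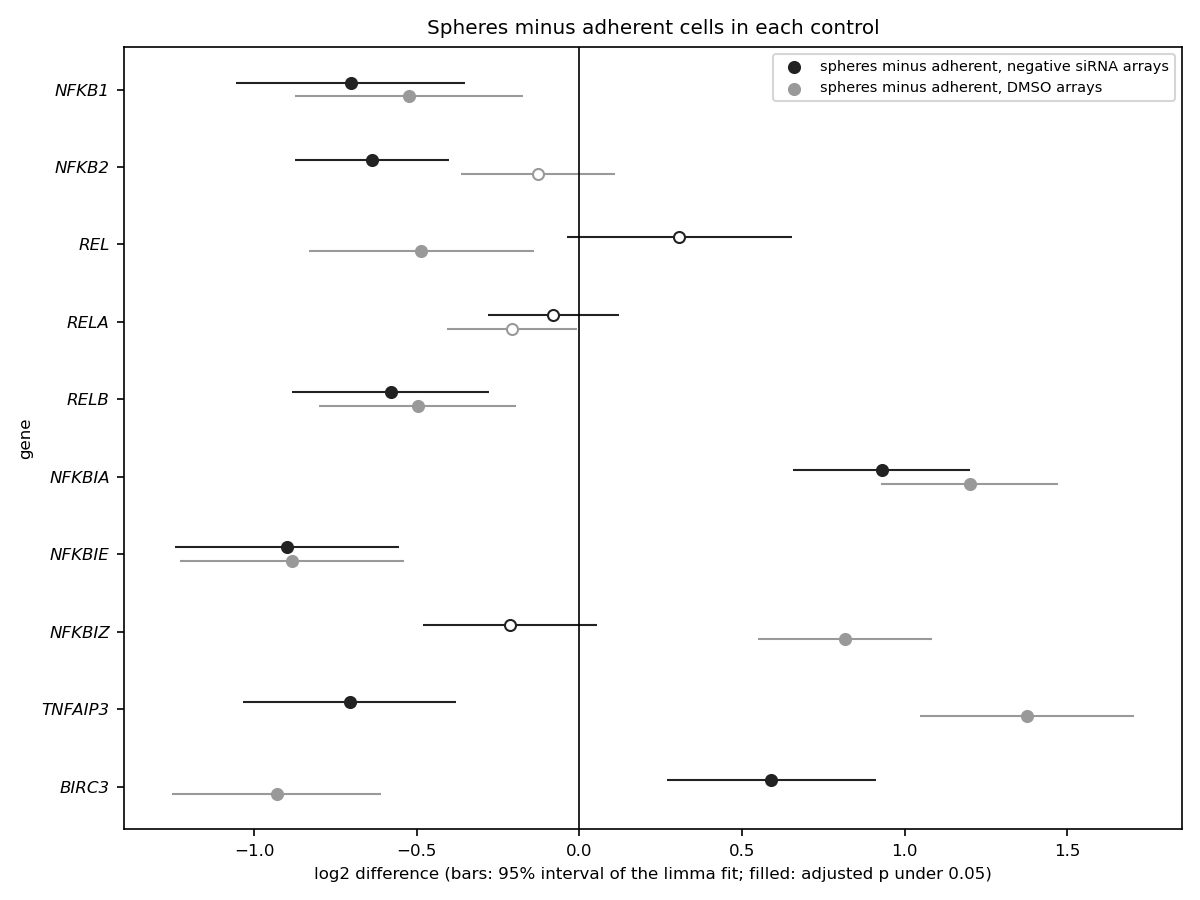
Log2 difference between spheres and adherent cells for each gene, within negative siRNA arrays and within DMSO arrays. Points are differences of group means of 3 arrays, bars are 95% intervals of the limma fit, and filled points passed an adjusted p of 0.05. NFKBIA is right of 0 under both controls, while TNFAIP3 and BIRC3 lie on opposite sides under the 2 controls.

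Marker lists moved with culture form. Under DMSO 1 of 10 epithelial markers was higher in spheres, KRT5 by 8.42, and 8 were lower, CLDN4 most (-4.27). Of 10 urothelial markers 2 were higher, TP63 by 4.78 and UPK1B by 1.56, and 6 lower, UPK3A (-7.50) and UPK1A (-7.28) most. Of 12 leukocyte markers 2 were higher, CORO1A by 2.29 and ITGAM by 0.42, and 0 lower. ITGAM lay under the median of all values in both groups. The differences of KRT5, TP63, UPK3A, UPK1A and CORO1A are lower bounds. The log2 of the summed signal of the epithelial markers was 13.89 to 13.95 in DMSO spheres, against 14.34 to 14.35 in DMSO adherent cells. That of the urothelial markers was 12.32 to 12.55 in spheres, against 13.14 to 13.31 in adherent cells. With the negative siRNA it was 13.60 to 13.66 in spheres against 14.34 to 14.35 in adherent cells for epithelium, and 11.81 to 12.09 in spheres against 13.14 to 13.16 in adherent cells for urothelium. Of 17 interferon response genes 8 were higher and 2 lower in DMSO spheres, with a summed log2 signal of 11.11 to 11.37, against 10.93 to 11.02 in DMSO adherent cells. With the negative siRNA 11 were higher and 3 lower in spheres, with a sum of 11.55 to 11.72, against 10.98 to 11.08 in adherent cells. Of 10 fibroblast markers 4 were higher and 0 lower in DMSO spheres, COL3A1 by 2.82 and THY1 by 2.15 among them, and the summed log2 signal was 9.92 to 10.11, against 9.67 to 9.86 in DMSO adherent cells. The COL3A1 and THY1 differences are lower bounds too. With the negative siRNA 2 were higher and 1 lower, with a sum of 8.53 to 8.58 in spheres, against 9.34 to 9.39 in adherent cells. The part of such differences in those of the NF-kB genes was not tested.

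The control treatments themselves differed, by transfection, by 48 h against 24 h and, in spheres, by plating, which cannot be told apart. In spheres the negative siRNA arrays differed from the DMSO arrays at 7 of 10 genes, 2 higher and 5 lower, where 19% of all genes were higher and 16.4% lower (35.3% in either direction). TNFAIP3 was lower, differing by -1.86 ± 0.16 (adjusted p = 4.22e-09), NFKBIA by -1.07 ± 0.13 (adjusted p = 8.67e-07) and NFKBIZ by -0.93 ± 0.13 (adjusted p = 4.85e-06). NFKB2 was lower, differing by -0.59 ± 0.11 (adjusted p = 0.000253) and RELB by -0.54 ± 0.15 (adjusted p = 0.00514). BIRC3 was higher by 1.34 ± 0.15 (adjusted p = 4.06e-07) and RELA by 0.37 ± 0.10 (adjusted p = 0.00412). Without the third DMSO sphere array NFKB1 (-0.45, adjusted p = 0.00692) and REL (-0.39, adjusted p = 0.0486) were lower too, against -0.15 for each gene with all arrays. In the same comparison 10 interferon response genes were higher and 5 lower of 17, with a summed log2 signal of 11.55 to 11.72 in negative siRNA spheres, against 11.11 to 11.37 in DMSO spheres. Of 10 markers each, 5 were lower for urothelium (sums of 11.81 to 12.09 with the negative siRNA, against 12.32 to 12.55 with DMSO), 1 was higher and 4 lower for epithelium (13.60 to 13.66 with the negative siRNA, against 13.89 to 13.95 with DMSO), and 4 were lower for fibroblasts (8.53 to 8.58 with the negative siRNA, against 9.92 to 10.11 with DMSO). The fibroblast markers THY1 and PDGFRA differed by -2.04 and -1.87, and the size of the THY1 difference is a lower bound. The part of these lists in the differences of the NF-kB genes was not tested.

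In adherent cells 3 of 10 genes differed between the negative siRNA and DMSO, all lower, where 8.74% of all genes were higher and 5.11% lower (13.9% in either direction). Of all genes called 63.1% were higher, and 52.4% after quantile normalization. REL was at 8.53, 8.20 and 8.32 with the negative siRNA, against 9.26, 9.31 and 9.32 with DMSO, differing by -0.95 ± 0.17 (adjusted p = 0.000599). NFKBIA was lower, differing by -0.80 ± 0.13 (adjusted p = 0.000292). Neither gene overlapped between groups. RELB was lower, differing by -0.46 ± 0.15 (adjusted p = 0.0388), which was lost without any of the 3 DMSO arrays or without negative siRNA array 1 (-0.32, adjusted p = 0.194).

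A test of whether the difference between controls itself differed with culture form was added after the values were seen. It passed as more positive in spheres for 2 of 10 genes and more negative for 3, where 7.77% of all genes were more positive and 9.29% more negative. TNFAIP3 differed by -2.08 ± 0.22 (adjusted p = 5.02e-07), BIRC3 by 1.52 ± 0.22 (adjusted p = 2.34e-05) and NFKBIZ by -1.03 ± 0.18 (adjusted p = 0.000277). REL differed by 0.79 ± 0.24 (adjusted p = 0.0219) and NFKB2 by -0.51 ± 0.16 (adjusted p = 0.0316). REL lost its call without sphere DMSO array 3 (0.56, adjusted p = 0.059), adherent negative siRNA array 2 or sphere negative siRNA array 1. NFKB2 lost its call without 1 of 7 arrays: adherent DMSO array 2 or 3, adherent negative siRNA array 3, or array 1 or 2 of either sphere group, with differences of -0.52 to -0.42. NFKB1 passed without sphere DMSO array 3, at -0.48 (adjusted p = 0.0484).

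Ordered by level over the 8 groups, 9 of the 10 genes were highest in spheres labelled COX-2 siRNA. For all 9 the arrays of that group lay above those of the next group. Over all genes measured, 15.3% were highest in that group, and for 4.27% its arrays also lay above those of the next. The exception was NFKBIE, whose 5 highest groups ran from 6.40 in adherent cells labelled COX-2 siRNA to 6.03 in adherent negative siRNA cells, each overlapping the next, with all 3 other sphere groups below at 4.91 to 5.20. The next group down was mavacoxib spheres for NFKB1, NFKB2, RELA, RELB, NFKBIA, NFKBIZ and TNFAIP3. In RELB, NFKBIA and TNFAIP3 the 3 highest groups were separate from each other: spheres labelled COX-2 siRNA, mavacoxib spheres, then adherent cells labelled COX-2 siRNA. For REL the second place went to adherent mavacoxib cells, at 9.65, which overlapped mavacoxib spheres, at 9.43. For BIRC3 the order went on with adherent cells labelled COX-2 siRNA, at 8.75, negative siRNA spheres, at 8.02, and DMSO adherent cells, at 7.61, and it ended with mavacoxib spheres, at 5.31. The lowest group was negative siRNA spheres for NFKB1, NFKB2, RELB and TNFAIP3, adherent negative siRNA cells for REL and NFKBIA, DMSO spheres for RELA, and adherent mavacoxib cells for NFKBIZ. Group means spanned 4.84 for BIRC3, 4.82 for TNFAIP3, 4.22 for NFKBIA and 3.22 for RELB, but 0.68 for RELA.

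Over the 24 arrays, which share groups and so are not independent, the 45 pairs of genes of the set correlated with Pearson r from -0.05 to 0.94, with a median of 0.60. NFKBIA and TNFAIP3 had the highest r, 0.94, and NFKBIA and NFKBIE the lowest. RELB and NFKB2 had r = 0.91. BIRC3 and RELB had r = 0.21. After group means were removed the range was -0.23 to 0.70 and the median 0.31, so a part of the relation remained within groups, where it includes whatever raises or lowers a whole array. The third DMSO sphere array, lowest or tied for lowest at all 10 genes, was included. Pairs of other genes were not compared.

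Among 7167 genes outside the set whose group means spanned at least 1 on the log2 scale, those most like each gene over the 24 arrays were named. They were picked for the highest r among many genes that differ between groups. High values follow from that choice, and no relation between the genes was tested. NFKBIA was most like MFGE8 (r = 0.97), IFNL1 (r = 0.96), an interferon, and TNF (r = 0.95), the cytokine. NFKBIZ was most like XDH and MAP3K8 (both r = 0.96) and TNF (r = 0.95). TNFAIP3 was most like OASL (r = 0.95), MARCKSL1 and GPBP1. BIRC3 was most like FBXW7 and RGS9 (both r = 0.95) and TSC22D2 (r = 0.93), and RELB like FOXJ3, KLF10 and PMAIP1 (each r = 0.93). REL was most like CYLD (r = 0.90), a deubiquitinase that limits NF-kB signalling. The first gene for the others was TLK2 for NFKB1, SLC25A37 for NFKB2, SUPT20H for RELA and BAZ2B for NFKBIE.

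The rest of the pathway was read from lists by role, and genes named are those with the smallest adjusted p in each list. For the counts that follow, the shares of all genes that rose and fell were 15.8% and 23.3% in spheres labelled COX-2 siRNA, 6.42% and 8.59% in adherent cells with that label, 11.1% and 10.3% in mavacoxib spheres, and 2.61% and 1.5% in adherent mavacoxib cells. Differences between lists were not tested. Among receptors and ligands, 7 of 15 measured rose and 0 fell in spheres labelled COX-2 siRNA relative to negative siRNA spheres. TNF, which activates the canonical arm, was 10.44 on arrays labelled COX-2 siRNA and 4.97 with the negative siRNA (5.48 ± 0.21), TLR3, a sensor of double-stranded RNA, 9.73 with the COX-2 siRNA label and 6.47 with the negative siRNA (3.26 ± 0.18), and TNFSF13B, a B cell survival factor, 6.79 with the COX-2 siRNA label and 4.30 with the negative siRNA (2.50 ± 0.14, a lower bound). In adherent cells 2 rose and 2 fell: TLR3 (2.49 ± 0.18) and TNF (2.26 ± 0.21, a lower bound) rose, and IL1R1, the interleukin 1 receptor, was among the 2 that fell, by 1.00, with both groups under the median of all values. In mavacoxib spheres 4 rose and 2 fell, among them TNF, at 8.90 with mavacoxib and 6.14 with DMSO (2.76 ± 0.21), IL1A, at 5.67 with mavacoxib and 4.13 with DMSO (1.55 ± 0.20, a lower bound), and TLR3, at 5.07 with mavacoxib and 6.19 with DMSO (-1.12 ± 0.18). In adherent mavacoxib cells 0 of 15 passed with limma, and at an unadjusted p under 0.05 there were 2 higher and 4 lower.

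Of 13 other inhibitors, 7 rose and 0 fell in spheres labelled COX-2 siRNA. They included TNIP3, a partner of the TNFAIP3 protein, at 6.58 with the COX-2 siRNA label and 3.15 with the negative siRNA (3.42 ± 0.18, a lower bound), CYLD, at 8.77 with the COX-2 siRNA label and 6.92 with the negative siRNA (1.85 ± 0.14), and NFKBID, a nuclear inhibitor-like protein, at 7.77 with the COX-2 siRNA label and 5.69 with the negative siRNA (2.08 ± 0.18). In adherent cells 3 rose and 1 fell: CYLD (1.09 ± 0.14) and N4BP1 (0.55 ± 0.14) were among those that rose, and NFKBIB, a close relative of NFKBIA, fell (-0.42 ± 0.11). In mavacoxib spheres 5 rose and 0 fell. BCL3, which binds the NFKB1 and NFKB2 products in the nucleus, was 10.53 with mavacoxib and 7.94 with DMSO (2.60 ± 0.17), with OTUD7B (0.89 ± 0.15) and NFKBIB (0.62 ± 0.11). In adherent mavacoxib cells NFKBIB rose alone, by 0.45 ± 0.11.

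Of 27 adaptors and kinases, 14 rose and 2 fell in spheres labelled COX-2 siRNA, with IKBKE, an inducible kinase of the interferon and NF-kB pathways (1.32 ± 0.11), BCL10 (0.92 ± 0.10) and MYD88, the adaptor of Toll-like receptors (0.95 ± 0.12). In adherent cells 4 rose and 0 fell, with MYD88 (1.22 ± 0.12) and RBCK1 (0.64 ± 0.11) and RNF31 (0.52 ± 0.11) of the linear ubiquitin complex. In mavacoxib spheres 5 rose and 3 fell, with the share that fell near that of all genes, and IKBKG, the regulatory subunit of the kinase complex, fell to 6.97 with mavacoxib and 8.28 with DMSO (-1.32 ± 0.17), while BCL10 (0.81 ± 0.10) and TRAF2 (0.65 ± 0.11) rose. In adherent mavacoxib cells RNF31 rose alone (0.45 ± 0.11).

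Of 26 target genes, 20 rose and 0 fell in spheres labelled COX-2 siRNA. The chemokine CXCL10 was 11.21 in these spheres against 4.12 in negative siRNA spheres (7.09 ± 0.19, a lower bound), CCL5 12.03 with the COX-2 siRNA label and 5.03 with the negative siRNA, and CCL2 10.50 with the COX-2 siRNA label and 4.35 with the negative siRNA (6.15 ± 0.13, a lower bound). CXCL10 and CCL5 are interferon targets too. In adherent cells 12 rose and 0 fell, with CCL5 (6.19 ± 0.20, a lower bound), CXCL10 (3.19 ± 0.19) and BCL2A1, a survival gene (1.44 ± 0.19). In mavacoxib spheres 13 rose and 2 fell, with IRF1, a transcription factor, at 8.99 with mavacoxib and 4.74 with DMSO (4.25 ± 0.18, a lower bound), GADD45B at 11.63 with mavacoxib and 9.39 with DMSO (2.24 ± 0.12) and CXCL10 at 7.59 with mavacoxib and 4.25 with DMSO (3.33 ± 0.19, a lower bound). In adherent mavacoxib cells 2 rose and 1 fell, LAMB3 (0.52 ± 0.12) and CXCL8 (0.65 ± 0.18) up and CXCL10 (-0.83 ± 0.19) down.

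**Figure D5:**
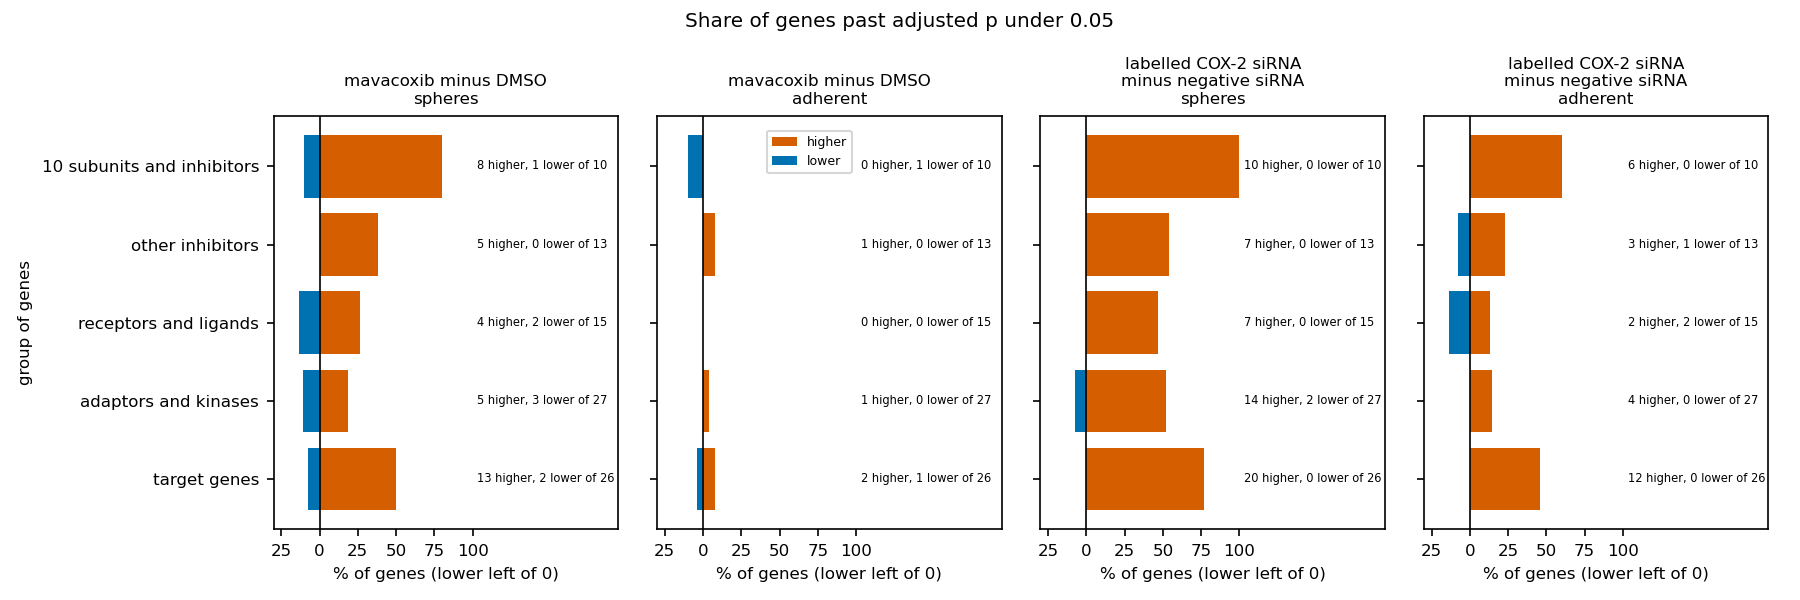
Share of the 10 genes of the set and of the other pathway genes by role that passed an adjusted p of 0.05, right of 0 for higher and left of 0 for lower, in mavacoxib against DMSO and labelled COX-2 siRNA against negative siRNA, spheres and adherent cells. Counts stand beside each bar. Spheres labelled COX-2 siRNA have the most genes called in each role, 20 of 26 for target genes.

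In the controls the same lists had calls in both directions, where 22.8% of all genes were higher and 23.3% lower in DMSO spheres. Between DMSO spheres and DMSO adherent cells 7 target genes were higher and 8 lower, 3 receptors and ligands higher and 7 lower, 6 adaptors and kinases higher and 11 lower, and 1 other inhibitor higher and 4 lower. The shares of target genes in each direction were close to those of all genes. Medians over these lists were 0.01 for targets, -0.38 for receptors and ligands, -0.20 for adaptors and kinases and -0.13 for other inhibitors, against -0.03 over all genes and -0.35 over the 10 genes of the set. With the negative siRNA, where 20.5% of all genes were higher and 22.1% lower, 3 target genes were higher and 10 lower, with a median of -0.17 against -0.40 over the set.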

How the data were processed

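The authors deposited 1 log2 signal for each array and feature. Per the submitters' processing notes these come from Affymetrix Expression Console 1.1. How they were summarised and normalized, and the genome build, is not given in the sources used here. No coordinates or sequences are given. Of 27766 features, 16878 carried 1 symbol in the platform annotation, 289 more than 1 and 10599 none. Where a gene had more than 1 feature (521 genes) the brightest by mean was kept, which left 16295 genes and no intensity filter.

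Groups followed the labels. In R 4.3.3, limma 3.58.1 estimated the mean of each of the 8 groups from the 24 arrays and moderated the variances (eBayes, 16 residual and 5.54 prior degrees of freedom). Two-sided p-values were adjusted within each comparison for all genes tested (Benjamini-Hochberg), with a threshold of 0.05. Intervals are 95%. Group means that share arrays make comparisons that share controls dependent.

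The 10 genes, the pathway and marker lists and the tests were chosen with earlier results of these data known, and a test of the control difference between forms and the fits without the third DMSO sphere array as a named result were added after seeing the values. Named genes are all 10 of the set, PTGS2, per comparison and role up to 3 pathway genes with the smallest adjusted p under 0.05, and the 3 genes of highest Pearson r with each gene. Alternatives were quantile normalization, a common array median, leaving out dim genes, averaging a gene's features, a block of replicate numbers, only the arrays of a comparison, and leaving out each array.

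Replicate numbers in the labels gave no pairing: of 24 same-numbered pairs 7 correlated above 0.1 after group means were removed (r from -0.17 to 0.27), and in 0 comparisons did every pair. The fit was tested on simulated data for siRNA in spheres, over 16295 genes: at log2 changes of 0.5, 1 and 2 the shares recovered were 28.4%, 86.6% and 100%, and 16 of 159 calls were false. For the siRNA difference between forms the shares were 10.4%, 56.7% and 93.9%, and 12 of 119 calls were false. Both shares of false calls exceed 0.05. Each simulation changed 67, 67 and 66 genes at the 3 sizes, in 1 group, with independent noise. In the data 6356 genes passed for siRNA in spheres and 2489 between forms. The adjusted threshold depends on how many genes change, so the shares recovered in the data may differ.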

Additional observations from a re-analysis of the deposited data

Results flagged for a closer look

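The size of a difference between groups itself differed with culture form for the following genes, by the limma test of that difference (spheres minus adherent cells, log2 scale). For mavacoxib against DMSO these were RELB (1.87), NFKBIA (1.58), TNFAIP3 (1.22), NFKB1 (0.85), NFKBIZ (0.65), RELA (0.46) and BIRC3 (-0.83). BIRC3 was the gene of the set whose mavacoxib difference was more negative in spheres with an adjusted p under 0.05. For arrays labelled COX-2 siRNA against the negative siRNA they were TNFAIP3 (2.84), NFKBIZ (2.13), RELB (2.02), NFKB2 (1.59), NFKB1 (1.21), BIRC3 (0.81) and NFKBIE (0.72), all larger in spheres. The NFKBIE call was lost with a common median, with only the arrays of that test and without certain single arrays. For the negative siRNA against DMSO, a test added after the values were seen, they were TNFAIP3 (-2.08), NFKBIZ (-1.03), NFKB2 (-0.51), REL (0.79) and BIRC3 (1.52).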

How the results depend on the processing

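Of 1500 recomputed differences of the 10 genes under alternatives, 1385 kept their direction and side of the threshold, 80 lost a call, 17 gained one and 18 changed sign, 0 of which had been called. Averaging features, a replicate block, leaving out dim genes and fitting only a comparison's arrays could not change these differences, only their adjusted p. Under those alternatives the direction was fixed in advance, which adds to the number kept. With a replicate block for equal replicate numbers, the number of genes of the set called was as without it in all 11 comparisons, for example 9 for mavacoxib in spheres and 10 for siRNA in spheres. For mavacoxib in adherent cells the count was 1, and it was 0 with a common median or with only the arrays of the comparison, 2 with quantile normalization or without dim genes, and 0 to 1 on leaving out arrays. With only the arrays of the comparison it was 5 for mavacoxib in spheres, 4 of 7 for mavacoxib between forms and 3 of 5 for the control difference between forms, and on leaving out arrays 7 to 9, 4 to 7 and 3 to 5. Genes called over the whole array for mavacoxib in adherent cells numbered 671, and 1034 without dim genes and 344 to 500 on leaving out arrays. For mavacoxib in spheres they numbered 3491, and 1904 with only those arrays. For mavacoxib between forms they numbered 1680, and 1427 with only the arrays of that test. For the control difference between forms they numbered 2779, and 2433 with only its arrays. On leaving out arrays they were 1566 to 1985 of 2445 for siRNA in adherent cells and 1427 to 1835 of 2257 for the negative siRNA against DMSO there. Sign changes came in small differences. For the negative siRNA against DMSO, leaving out arrays gave -0.022 to 0.063 (NFKB1), -0.16 to 0.02 (NFKB2) and -0.163 to 0.047 (NFKBIE) in adherent cells, and -0.445 to 0.035 (NFKB1), -0.388 to 0.062 (REL) and -0.188 to 0.075 (NFKBIE) in spheres. Between forms it gave -0.478 to 0.0017 (NFKB1), -0.132 to 0.132 (NFKBIE) and -0.228 to 0.017 (RELB). With quantile normalization the sign changed for NFKB1 in adherent cells (-0.037), for NFKBIE in spheres (0.0012) and between forms (0.056), and for RELA in negative siRNA spheres against adherent cells (0.0038). With a common median it changed for NFKBIE between forms (0.033). The causes were not tested, and 3 arrays per group limit the precision.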
